A study of Mus musculus with 8 samples.

Results

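The miR-34 family was examined in mouse heart tissue after myocardial infarction (MI). It was represented by 5 mature miRNA probe sets of 1908 on the array, namely both arms of miR-34c (miR-34c-5p and miR-34c-3p), both arms of miR-34b (miR-34b-3p and miR-34b-5p) and the 5p arm of miR-34a (miR-34a-5p). They were taken by a list of miRBase accessions, in the same order MIMAT0000381_st, MIMAT0004580_st, MIMAT0004581_st, MIMAT0000382_st and MIMAT0000542_st, whose names came with the list. The family was chosen by its measured MI minus Sham differences on these same arrays, so its values in the 2 groups are given as a description, without p-values. There were 4 MI hearts, collected 21 days after the left anterior descending coronary artery was tied off, and 4 Sham hearts, collected 21 days after a sham operation. All came from male C57/BL6 mice with a labelled age of 8 weeks, and each heart was read on 1 Affymetrix miRNA 4.0 array. The titles of both groups carry the suffix nc, which the labels do not explain. The MI hearts are numbered 1, 4, 5 and 7 and the Sham hearts 1 to 4. The labels describe heart tissue without naming a region of it, so the part of each MI sample that was scar is not known. Values are log2 intensities, in which 1 unit is a 2-fold difference.

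A miRNA is cut from a hairpin precursor, and either arm of the hairpin (5p or 3p) can be loaded into the silencing complex, where bases 2 to 8, the seed, pair with messenger RNAs. The miR-34 family is known as a set of direct transcriptional targets of the tumour suppressor p53, and it restrains the cell cycle and promotes senescence and apoptosis. miR-34a is made from its own gene in many tissues. miR-34b and miR-34c come from a shared primary transcript and are known for high levels in testis, lung and other tissues with multiciliated cells. In the mouse heart, miR-34a is known to increase with age, and blocking the family has been studied as a treatment after infarction.

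The mature sequences are shown so that arms can be compared by seed. RefSeq sequences (GRCm38.p6) matched 4 of the 5 arms, all but miR-34c-5p, which is known to belong to the same seed family as miR-34a-5p. The capitals mark the seed, bases 2 to 8 from the 5′ end.
miR-34a-5p: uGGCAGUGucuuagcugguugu
miR-34b-5p: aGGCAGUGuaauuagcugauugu
miR-34b-3p: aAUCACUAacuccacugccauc
miR-34c-3p: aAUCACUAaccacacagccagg

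miR-34a-5p and miR-34b-5p shared the seed GGCAGUG and were identical at 19 of 23 aligned positions, with 1 gap. In the RefSeq table miR-449a-5p and miR-449c-5p carried it too. miR-34b-3p and miR-34c-3p shared the seed AUCACUA, which no other mature miRNA in the table carried, and were identical at 17 of 22 positions, the first 10 included. How far the array's probes for such similar arms read each other's target was not tested.

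The genes lie in separate places. Mir34a is on chromosome 4, where miR-34a-5p occupies chr4:150068473-150068494 on the plus strand and no other gene in the RefSeq table overlaps the hairpin. Mir34b and Mir34c lie on the minus strand of chromosome 9, with 451 bases between the hairpins, and Mir34b comes first in the direction of transcription. miR-34b-5p occupies chr9:51103610-51103632, miR-34b-3p chr9:51103574-51103595 and miR-34c-3p chr9:51103044-51103065. Both hairpins overlap the spans that RefSeq gives for Btg4 and Hoatz, whose exons and strand were not examined here. The Mir34b hairpin carries an arm that stayed at the floor of the scale in every heart and an arm that was far higher in MI hearts, and the Mir34a hairpin carries an arm that was bright in every heart. They are shown with the arms measured here in capitals.
Mir34b hairpin: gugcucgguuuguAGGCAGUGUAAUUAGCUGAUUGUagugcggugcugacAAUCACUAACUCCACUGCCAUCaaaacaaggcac
Mir34a hairpin: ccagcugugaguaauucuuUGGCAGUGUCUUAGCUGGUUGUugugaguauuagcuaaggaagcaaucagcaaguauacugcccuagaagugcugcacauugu

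With no detection calls at hand, each arm was set against the spike-in controls that stayed dim. These were the 17 of 22 spike-in probe sets that read under 3 log2 units on every array, and they ran from 0.789 to 2.06. The highest, 2.06, was read in Sham heart 2 and is called the dim level below. The highest dim control of an array was 1.54 ± 0.104 in MI hearts and 1.76 ± 0.220 in Sham hearts (SD, n = 4 each), a difference of -0.218. An exact two-sided permutation of the arrays gave p = 0.114, or 0.228 after adjustment over 2 such comparisons, where 0.0286 is the smallest p possible. With 4 arrays per group, this does not show that the groups had the same dim level. Arrays correlated at 0.980 to 0.987 within the MI group and at 0.961 to 0.985 within the Sham group, and no 2 arrays held the same values. Between 499 and 540 mature probe sets exceeded the dim level in MI hearts, and between 457 and 546 in Sham hearts.

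In the miR-34b/c locus 3 arms, miR-34c-5p, miR-34c-3p and miR-34b-3p, were higher in every MI heart than in any Sham heart. Their group means differed by 2.70 to 3.05 log2 units, and the lowest MI heart stood 1.86 to 2.43 above the highest Sham heart, while miR-34b-5p stayed at the floor of the scale in both groups and miR-34a-5p was bright in both. The median difference of the 5 arms was 2.70, against -0.00389 over all 1908 mature probe sets. All 3 were among the 10 mature probe sets (0.524% of those tested) that passed an adjusted p of 0.05 in limma, a count that the choice of the arms fixed and from which nothing is read. The MI hearts all exceeded the Sham hearts in 2.88% of mature probe sets. In bulk tissue, a change in the number of cells that carry a miRNA and a change in its amount per cell cannot be told apart.

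**Figure D1:**
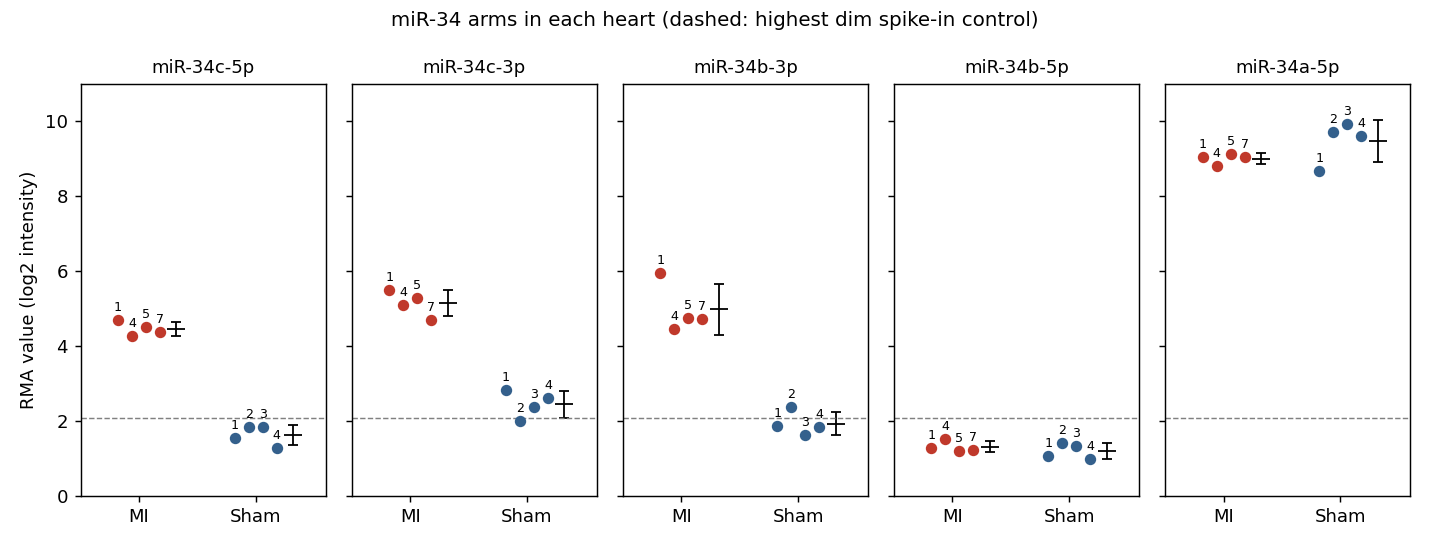
RMA values (log2 intensity) of the 5 miR-34 arms in each heart, with MI hearts in red and Sham hearts in blue, heart numbers beside the points, and black bars for the group mean ± SD (n = 4). The dashed line is the highest dim spike-in control (2.06). The first 3 panels separate the groups, miR-34b-5p lies under the line in all 8 hearts and miR-34a-5p lies far above it.

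miR-34c-5p, the arm of miR-34c known as its main functional product, measured 4.70, 4.26, 4.49 and 4.37 log2 units in MI hearts 1, 4, 5 and 7, against 1.54, 1.82, 1.83 and 1.28 in Sham hearts 1 to 4. All Sham values lay under the dim level and all MI values over it, and the lowest MI heart stood 2.43 above the highest Sham heart. The group means were 4.46 ± 0.189 in MI hearts and 1.62 ± 0.262 in Sham hearts (SD, n = 4 each), which differed by 2.84 (standard error 0.154). With the Sham values raised to the dim level, the MI level was at least 5.28-fold higher. With each Sham value raised to the highest dim control of its own array where it lay under it, the MI level was at least 6.19-fold higher. Only 5 mature probe sets of 1908 lay under the dim level in every Sham heart and over it in every MI heart, and miR-34c-5p was 1 of them. None (0) showed the opposite, under the dim level in every MI heart and over it in every Sham heart.

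miR-34c-3p, the opposite arm of the same hairpin, measured 5.50, 5.10, 5.28 and 4.69 in MI hearts 1, 4, 5 and 7, against 2.82, 1.99, 2.36 and 2.61 in Sham hearts 1 to 4. It was over the dim level in all MI hearts and in 3 of 4 Sham hearts, and the groups were 1.86 apart at their nearest. The means were 5.14 ± 0.345 in MI hearts and 2.44 ± 0.358 in Sham hearts (SD, n = 4 each). The difference was 2.70 with a standard error of 0.224, at least 6.40-fold with the 1 dim Sham value set to the dim level. The differences of the 2 arms of miR-34c were 0.14 apart with a standard error of 0.310, which is within the spread between hearts. All Sham values of miR-34c-5p lay under the dim level, against 1 of miR-34c-3p, so the floor may have compressed the 2 differences unequally. The values do not show that the 2 arms changed by the same amount.

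miR-34b-3p measured 5.95, 4.45, 4.75 and 4.72 in MI hearts 1, 4, 5 and 7, against 1.85, 2.36, 1.63 and 1.82 in Sham hearts 1 to 4. MI heart 1 stood 1.20 above the next MI heart, and Sham heart 2 was the 1 Sham heart over the dim level. The means were 4.97 ± 0.670 in MI hearts and 1.92 ± 0.310 in Sham hearts (SD, n = 4 each). The difference was 3.05 with a standard error of 0.325, at least 7.14-fold with the dim Sham values set to the dim level. Every Sham value lay over the highest dim control of its own array, which was 1.8, 2.06, 1.57 and 1.62 in Sham hearts 1 to 4. Set against those controls no Sham value was raised, and the MI level was 8.3-fold higher. Without MI heart 1 the difference was 2.73 with a standard error of 0.185.

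Ranked by MI minus Sham difference over the 1908 mature probe sets, miR-34b-3p stood at 1, miR-34c-5p at 3 and miR-34c-3p at 4. Differences against a level near the floor are compressed, so the order among them is a description of these arrays only. Of the 1398 mature probe sets with a Sham mean under the dim level, 10 were more than 1 log2 unit higher in MI hearts and 4 more than 2 units. miR-34c-5p and miR-34b-3p were among those 4.

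**Figure D2:**
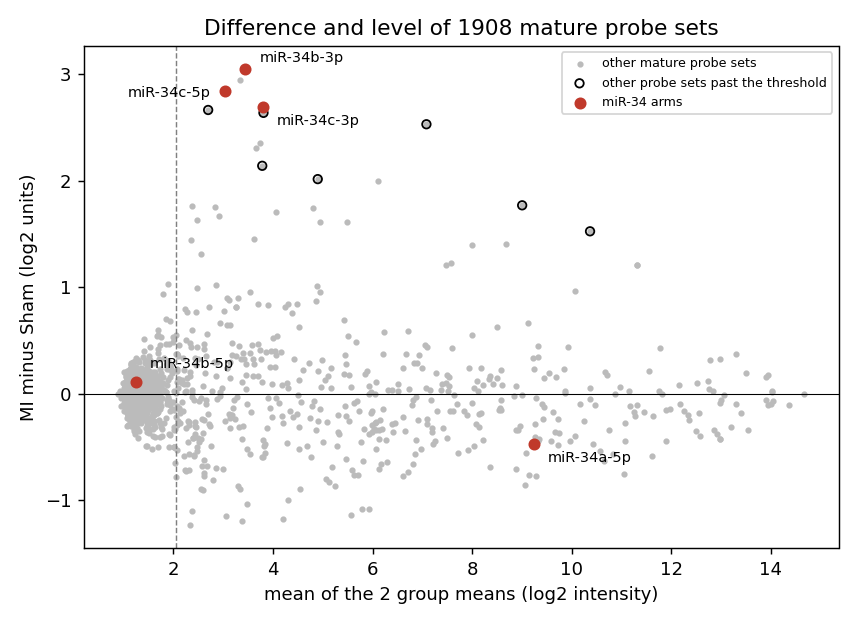
MI minus Sham difference (log2 units) against the mean of the MI and Sham means (log2 intensity) for 1908 mature probe sets in grey, with the miR-34 arms in red and other probe sets past an adjusted p of 0.05 in limma as open circles. The dashed line is the dim level (2.06). Of the miR-34b/c arms, 3 stand at 2.70 to 3.05, miR-34b-5p at 0.11 among the dim probe sets and miR-34a-5p at -0.47.

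miR-34b-5p, the 5p arm of the same hairpin as miR-34b-3p, measured 1.26, 1.51, 1.20 and 1.21 in MI hearts 1, 4, 5 and 7, against 1.05, 1.41, 1.32 and 0.97 in Sham hearts 1 to 4. All 8 values lay under the dim level and the groups overlapped, so no fold is given. The means were 1.30 ± 0.146 in MI hearts and 1.19 ± 0.210 in Sham hearts (SD, n = 4 each), and the difference was 0.11 with a standard error of 0.129. In total 1242 of 1908 mature probe sets lay under the dim level on all 8 arrays. A value under the dim level does not show that the arm was absent.

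miR-34a-5p, the family member known for its increase in the ageing heart, measured 9.05, 8.81, 9.13 and 9.03 in MI hearts 1, 4, 5 and 7, against 8.67, 9.71, 9.91 and 9.60 in Sham hearts 1 to 4. The MI hearts lay below 3 of the Sham hearts and above Sham heart 1, so the groups overlapped. The means were 9.0 ± 0.136 in MI hearts and 9.47 ± 0.549 in Sham hearts (SD, n = 4 each), which gives -0.47 (standard error 0.253), or 0.723-fold. The size of this difference moved with single Sham hearts. It was -0.73 with a standard error of 0.121 without Sham heart 1, and -0.32 without Sham heart 3.

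Sham heart 1 differed in miR-34a-5p by -1.07 log2 units from the mean of the other 3 Sham hearts. Over the 271 mature probe sets that averaged at least 5 log2 units on the 8 arrays, the median of the same difference was -0.22, and 20 of the 271, miR-34a-5p included, were as low as miR-34a-5p or lower. The bacterial hybridisation controls averaged 11.2 in that heart, against 11.1, 11.9 and 11.6 in Sham hearts 2, 3 and 4, and 11.4 to 11.7 in MI hearts. Their part in the low value was not tested. The 55 other mature probe sets within 1 log2 unit of the mean level of miR-34a-5p had a median SD of 0.345 between MI hearts and 0.434 between Sham hearts. Of these, 4 had an SD between MI hearts as small as that of miR-34a-5p, and 13 had an SD between Sham hearts as large. Their median MI minus Sham difference was -0.09, and 7 of them were as low as miR-34a-5p or lower.

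The contrast between the loci was taken within each heart. The Sham values of the miR-34b/c arms near the floor enter it as measured. Relative to its Sham mean, miR-34c-5p was higher by 2.65 to 3.09 in the MI hearts, miR-34c-3p by 2.24 to 3.06 and miR-34b-3p by 2.53 to 4.04, while miR-34a-5p ran from -0.66 to -0.34. The difference of miR-34c-5p exceeded that of miR-34a-5p by 3.31 with a standard error of 0.268, that of miR-34c-3p by 3.16 with a standard error of 0.456, and that of miR-34b-3p by 3.52 with a standard error of 0.441. In each of these the MI hearts all exceeded the Sham hearts. For miR-34c-5p the contrast ran from 3.20 to 3.51 in MI hearts and from -0.47 to 0.73 in Sham hearts.

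**Figure D3:**
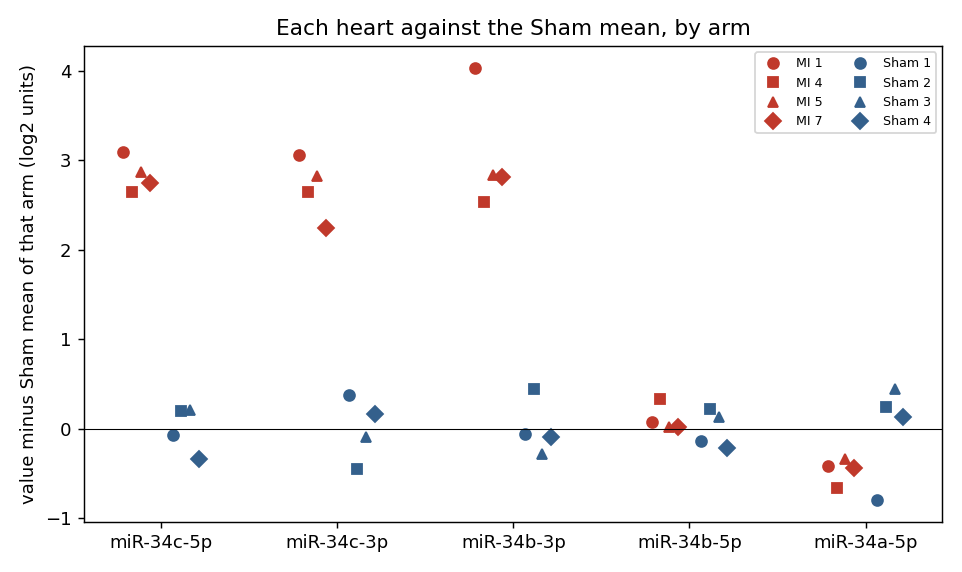
Value of each heart minus the Sham mean of the same arm (log2 units), with MI hearts in red, Sham hearts in blue and 1 marker shape per heart. MI heart 1 is the highest of the MI hearts in the 3 miR-34b/c arms that differ, and the miR-34a-5p values of the MI hearts lie between Sham heart 1 (-0.80) and the other Sham hearts.

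The MI hearts stood in a partly shared order across the arms. How often other mature probe sets showed the same order was not counted. MI heart 1 was the highest MI heart in miR-34c-5p, miR-34c-3p and miR-34b-3p, and MI heart 5 was the next in each. MI heart 4 was the lowest in miR-34c-5p, miR-34b-3p and miR-34a-5p, and MI heart 7 in miR-34c-3p. The Sham hearts kept no such order. Sham heart 1 was the highest in miR-34c-3p and the lowest in miR-34a-5p, and Sham heart 2 was the highest in miR-34b-3p and the lowest in miR-34c-3p. For values this near the floor the order of Sham hearts carries little, since 8 of these 12 Sham values of the 3 arms lay under the dim level. That level was read in Sham heart 2, and the highest dim control was lower in Sham hearts 1, 3 and 4, at 1.8, 1.57 and 1.62. Against the highest dim control of their own array fewer of these values lay under, and none of those of miR-34b-3p did.

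The probe sets most like the miR-34b/c locus were found by the correlation of each mature probe set with the mean of the 4 miR-34b/c arms over the 8 arrays. Among these arms, miR-34b-5p lay under the dim level on all 8 arrays and entered the mean as measured. The Sham values of the other arms near the floor did too, also in the r after centring. Of 516 candidates above the dim level on at least 4 arrays, the 5 most alike had Pearson's r from 0.943 to 0.983. The arrays fall into their groups in such a profile, so r follows the MI minus Sham difference and is given as a description. After the group means were subtracted, r ran from -0.310 to 0.914 among the 5. The accessions are not paired with miRNA names in the files used here, so these probe sets are not named as miRNAs. The nearest, MIMAT0000567_st, measured 6.40, 5.90, 5.56 and 5.77 in MI hearts 1, 4, 5 and 7, against 3.57, 4.11, 3.98 and 3.90 in Sham hearts 1 to 4. MI heart 1 was its highest too, and its r after centring was 0.674. The centred r was taken for these 5 alone. Among the 5, the one most alike after centring was MIMAT0001422_st, with an r of 0.914. It measured 6.50, 5.51, 5.69 and 5.34 in MI hearts, against 4.55, 4.17, 4.11 and 3.72 in Sham hearts. Its MI hearts stood in the same order as in the locus profile, with heart 1 highest, then 5, 4 and 7. The differences of the 5 ran from 1.62 to 2.67, and 3 of them, with differences of 1.77 to 2.67, passed the adjusted threshold of 0.05 in limma. Of all mature probe sets 0.524% passed. A choice by this profile favours probe sets with large differences, so nothing is read from the count.

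**Figure D4:**
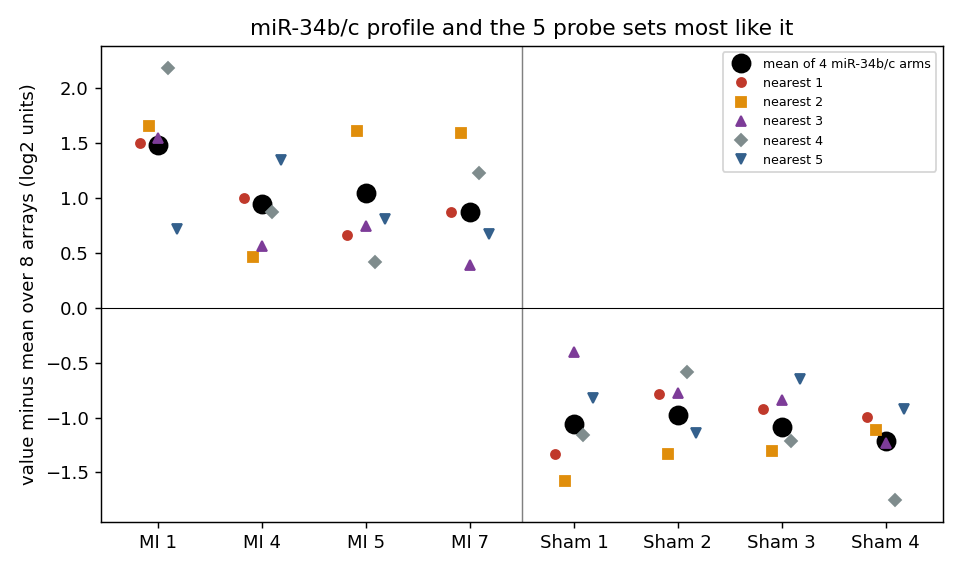
Value minus the mean over 8 arrays (log2 units) in each heart, for the mean of the 4 miR-34b/c arms (large black points) and the 5 mature probe sets most like it, numbered by Pearson's r. The locus profile is highest in MI heart 1 (1.48) and lies between 0.87 and 1.05 in the other MI hearts and between -1.21 and -0.98 in Sham hearts.

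Hairpin probe sets gave no call. None of the 1255 hairpin probe sets on the array, whose accessions could not be tied to the miR-34 genes here, passed an adjusted p of 0.05 in limma (0 called, 0.0%, lowest adjusted p = 0.312). An unadjusted p under 0.05 was reached by 40 that were higher and 28 that were lower in MI hearts. Where nothing differs, a share of about 0.05 of the probe sets tested reaches such a p, so nothing is read from these counts.

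The differences of the arms were recomputed under other scalings of the arrays and with each heart left out. miR-34c-5p ran from 2.73 to 2.91, miR-34c-3p from 2.54 to 2.85 and miR-34b-3p from 2.73 to 3.23 over the 8 sets of 7 hearts.

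**Figure D5:**
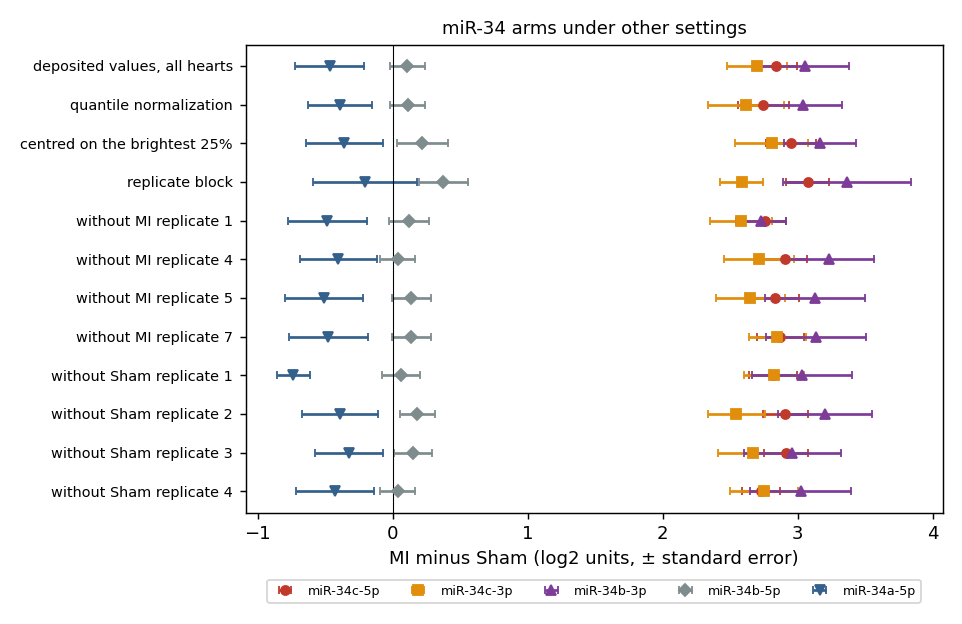
MI minus Sham difference (log2 units) of the 5 arms, with its standard error as a bar, for the deposited values of all hearts, for 2 other scalings, with the replicate number as a block, and without each heart. The line of the block rests on the hearts numbered 1 and 4 alone. The 3 higher arms stay at 2.54 or more in every line, miR-34b-5p lies between 0.04 and 0.38, and miR-34a-5p stays under 0, at -0.73 without Sham heart 1.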

How the data were processed

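The deposited table holds log2 values, and the submitters' processing notes name RMA as the method of the authors. This method removes background, equalises the arrays and combines the probes of each set, and it can compress differences near the floor of the scale. The RMA version and the presence of detection calls were not stated. Per the labels' protocols, total RNA received a poly(A) tail and biotin before hybridisation. The table holds 3222 probe sets, of which 1908 are mature miRNAs and 1255 hairpins by the form of their accessions.

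Differences and standard errors came from limma 3.58.1 in R 4.3.3 (group as the only term, 8 arrays, p-values adjusted by Benjamini-Hochberg over each kind of probe set, no filter on level). The fit was tested on simulated data in which only the brightest 25% of mature probe sets by Sham mean were changed. Rises from a Sham mean under the dim level, as in miR-34c-5p and miR-34b-3p, were not simulated. Values with 1 reading per array were compared by exact permutation over 70 assignments (scipy 1.17.1). Sequences were aligned globally with Biopython 1.88. The number of arrays limits the precision, and the labels do not say whether hearts shared a surgery day.

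The members, lists and rules were chosen with earlier results of these data known. All 5 arms were to be named, with the 5 probe sets most like the miR-34b/c arms by correlation. The planned list of p53-raised miRNAs, the rows sharing a seed or precursor, and the cell type markers that would check the labelled tissue were not tested, since the accessions are not paired with names here; only the 5 arms carry names, which came with the list of accessions.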

Additional observations from a re-analysis of the deposited data

How the results depend on the processing

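In the deposited values 10 mature probe sets passed, all higher in MI hearts. Quantile normalization gave 15 and centring each array on the brightest 25% gave 25. Testing the brightest 50% alone gave 20, a variance prior that is robust and follows intensity gave 18, weighting the arrays gave 17 and the unmoderated test gave 7. Leaving out each heart gave 7 (without MI heart 7) to 17 (without Sham heart 3). The causes were not tested, except that the brightest 50% tests fewer probe sets. Under the robust prior that follows intensity, the standard errors of the 3 higher arms were larger. They were 0.380 for miR-34c-5p, 0.407 for miR-34c-3p and 0.442 for miR-34b-3p, against 0.154, 0.224 and 0.325 without that prior. The hairpin count was 0 in every setting run on hairpins but the block. The heart numbers 1 and 4 occur in both groups, but deviations from the group means correlated at -0.294 for the hearts numbered 1 and -0.0446 for those numbered 4, and the hearts were taken as unpaired. With the replicate number as a block, which leaves 1 residual degree of freedom, 0 mature (53 higher and 23 lower at an unadjusted p under 0.05) and 2 hairpin probe sets passed, none of the 3 higher arms among them. Nothing is read from the unadjusted counts. In that fit only the hearts numbered 1 and 4 set the difference, since the other numbers occur in 1 group only. The block put miR-34c-5p at 3.07, miR-34c-3p at 2.58, miR-34b-3p at 3.36, miR-34b-5p at 0.38 and miR-34a-5p at -0.21.

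The centring moved the median difference of all mature probe sets to 0.11, against -0.00389 before, and gave 2.95 for miR-34c-5p, 2.81 for miR-34c-3p, 3.16 for miR-34b-3p, 0.22 for miR-34b-5p and -0.36 for miR-34a-5p. Quantile normalization gave 2.74, 2.61, 3.03, 0.11 and -0.39 in the same order. Without each heart, miR-34b-5p ran from 0.04 to 0.18 and miR-34a-5p from -0.73 (without Sham heart 1) to -0.32. Of the 55 recomputed differences of the arms, 53 moved by less than the spread between hearts. The mean of the dim controls differed by -0.0448 between groups (exact permutation test, p = 0.343, adjusted p = 0.343). The alternatives for the p53 list and for rows sharing a seed or precursor were not run, because those rows could not be named. The background correction was not varied, and signal near the floor limits what can be read of miR-34b-5p in both groups and of the 3 higher arms in Sham hearts.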

Other observations

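miR-34b-5p shares its seed and 19 of 23 aligned positions with miR-34a-5p. The probe set of miR-34b-5p lay under the dim level in all 8 hearts, while that of miR-34a-5p lay over it in all 8. Both arms of miR-34c were over the dim level in every MI heart, but of the miR-34b hairpin only the 3p arm was.

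Dixon's ratio, the gap of the furthest heart over the group's range, passed its critical value in none of the 10 groups of 4 values. With 4 values only a gap that fills most of the range can pass. The result therefore does not show that no heart stood apart from its group. MI heart 4 in miR-34b-5p, with a ratio of 0.827, lay just under the critical value. MI heart 1 in miR-34b-3p was next at 0.796, and then Sham heart 1 in miR-34a-5p at 0.75.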
